A study of Mus musculus with 16 samples.

Results

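Heat shock proteins and their co-chaperones were compared among 4 genotypes of male mice, on 16 Illumina arrays that each held the left ventricular RNA of 1 heart, 4 arrays for each genotype. The members were the genes whose symbol in the probe table begins with the Hsp, Dnaj or Bag family names used for chaperones, together with Cryab and without Hspg2 and Hspbp1. Of 70 such genes, 49 had a probe detected on at least 4 of the 16 arrays and were tested, among 6902 genes tested in all. Detected means that the deposited detection p-value, which sets a probe against the negative control beads of its array, was under 0.01. The 49 genes were 7 small heat shock proteins, 7 of the HSP70 and HSP110 group, 1 of HSP90, both members of the mitochondrial HSP60 and HSP10 pair, 27 DNAJ proteins and 5 BAG proteins.

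The TRAF2LC hearts carried Myh6-TRAF2LC, a transgene for the TNF receptor adaptor TRAF2, and the IκBαΔN hearts carried Myh6-IκBαΔN, a transgene for a truncated form of the NF-κB inhibitor IκBα. The double transgenic hearts carried both, and the controls were littermates without a named transgene. The Myh6 promoter drives expression in cardiomyocytes, while the RNA came from whole ventricle tissue, in which fewer cells of a type and less RNA per cell cannot be told apart. The labels give neither the age nor the strain of the mice. Adjusted p-values come from limma across all tested probes, and they set each difference against the spread between hearts of the same genotype. Values are log2 intensities after quantile normalization, and where a gene had several tested probes the brightest one stands for it.

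Small heat shock proteins bind unfolding proteins without using ATP and hold them in a state from which HSP70 can refold them. HSP70 proteins fold clients through cycles of ATP hydrolysis, which J-domain proteins of the DNAJ family start and which nucleotide exchange factors such as the BAG and HSP110 proteins complete. HSP90 takes over part of these clients, among them kinases and steroid receptors. In cardiomyocytes small heat shock proteins such as αB-crystallin (Cryab) and Hspb6 are abundant and associate with the sarcomere and the cytoskeleton.

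Across the 4 genotypes most chaperone genes passed none of the tests. Those that passed were Hspb6 and Hspa2, both lower in double transgenic hearts, and Hspa1l, which was higher in them. In the F test for any difference among genotypes, 2 of the 49 genes passed, against 3.14% of all genes tested. These were Hspb6 (adjusted p = 0.00311) and Hspa2 (adjusted p = 0.00895). For 5 of the 49 genes the highest and lowest genotype means lay more than 0.5 log2 units apart (10.2%), against 12.1% of all genes tested. The median of that range was 0.28 for the chaperone genes and 0.27 for all genes tested.

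In TRAF2LC against control hearts, limma called 0 of the 49 genes at an adjusted p under 0.05, against 1.12% of all genes, and 4 had an unadjusted p under 0.05, against 11.2% of all genes. In IκBαΔN against control hearts it called 0 of 49, against 0.493% of all genes, and 3 had an unadjusted p under 0.05, against 7.69%. Double transgenic against control hearts gave 3 calls of 49, against 0.956% of all genes. Of these, Hspa1l was higher (0.478% of all genes) and Hspa2 and Hspb6 were lower (0.478%), and 8 of the 49 had an unadjusted p under 0.05, against 11.2%. Double transgenic against TRAF2LC hearts gave 2 calls of 49, against 3.1% of all genes, and both Hspb6 and Hspa2 were lower (1.7% of all genes), while 9 of the 49 had an unadjusted p under 0.05, against 16.7%. Between double transgenic and IκBαΔN hearts it called 0 of 49, against 0.0145% of all genes, with 3 at an unadjusted p under 0.05, against 5.72%. The interaction, which asks whether 1 transgene changed the effect of the other, called 0 of 49, against 0.0145%, with 2 at an unadjusted p under 0.05, against 6.46%. The comparisons with control share the same 4 control arrays. Those of double transgenic hearts with control, TRAF2LC and IκBαΔN hearts all share the same 4 double transgenic arrays. Calls in comparisons that share arrays are therefore not independent.

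**Figure D1:**
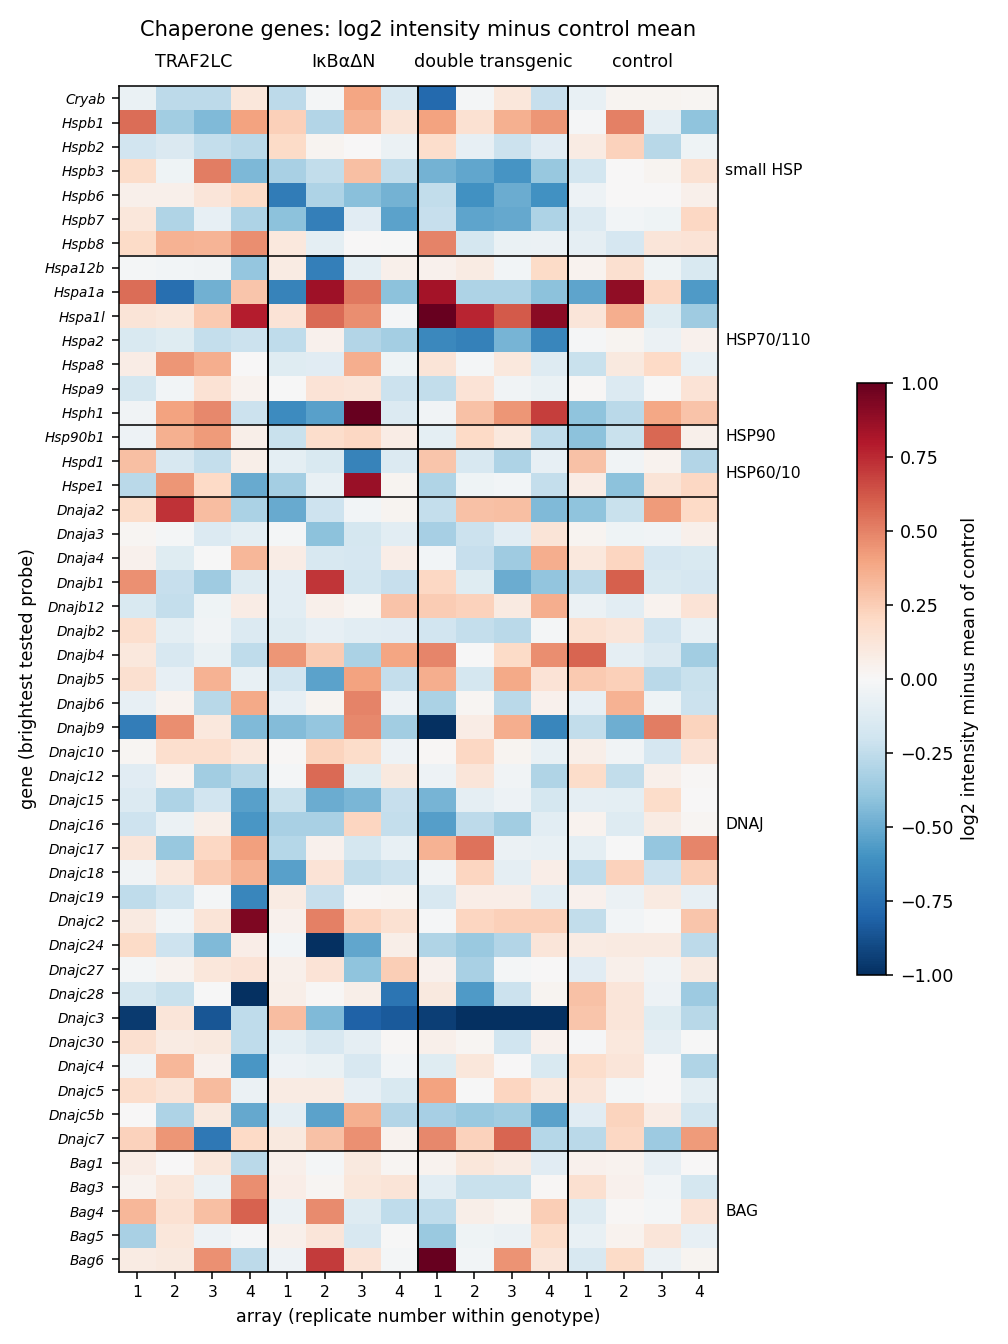
Each row is 1 of the 49 tested chaperone genes, grouped by class, and each column is 1 array. Colour gives the log2 intensity minus the mean of the 4 control arrays, with the scale ending at -1 and 1. Hspb6 is lower in all 8 IκBαΔN and double transgenic arrays, Hspa2 in all 4 double transgenic arrays, and Hspa1l is higher in the double transgenic arrays, while most other genes show no column pattern by genotype.

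Hspb6 encodes HSP20, a small heat shock protein of heart, skeletal and smooth muscle that is phosphorylated by cyclic nucleotide-dependent kinases. Its probe, ILMN_2805339, read 15.32, 15.32, 15.39 and 15.46 in TRAF2LC hearts, 14.57, 14.95, 14.85 and 14.80 in IκBαΔN hearts, 15.02, 14.66, 14.77 and 14.66 in double transgenic hearts, and 15.21, 15.27, 15.27 and 15.32 in control hearts. All 8 arrays of hearts with the IκBαΔN transgene lay below all 8 arrays of hearts without it, an arrangement that 0.522% of all genes tested showed in this direction and that no other member showed. The highest array with the transgene, 15.02, was a double transgenic heart, and the lowest without it, 15.21, was a control.

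Hspb6 fell by 0.49 ± 0.11 log2 units (SE) in double transgenic against control hearts, to 0.713 of the control level (adjusted p = 0.0442), a call that held in 13 of 29 alternatives. It fell by 0.59 ± 0.11 in double transgenic against TRAF2LC hearts (adjusted p = 0.00458). In IκBαΔN against control hearts the difference was -0.47 ± 0.11, of nearly the same size, but it did not pass (adjusted p = 0.0747, unadjusted p = 0.000427). Double transgenic and IκBαΔN hearts differed by -0.01, with a 95% interval of -0.24 to 0.21, and TRAF2LC and control hearts by 0.10, with an interval of -0.12 to 0.33. The interaction was -0.12 ± 0.15 (adjusted p = 0.954).

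The Hspb6 probe is among the brightest on these arrays. Its deposited signal was 54.1% to 97.5% of the brightest probe of the same array, with 1 to 23 probes brighter than it. The share was 77.6% to 97.5% in TRAF2LC hearts, 54.1% to 61.8% in IκBαΔN hearts, 54.2% to 70.9% in double transgenic hearts and 80.4% to 89.9% in control hearts, so the groups with and without the IκBαΔN transgene also stayed apart on the scale of the deposited signal relative to that probe. How far scanner response near its upper end shapes these differences was not tested.

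Hspa2 is an HSP70 known best for its part in spermatogenesis in mice, and it is also expressed in other tissues. Its probe ILMN_1223285 read 8.52, 8.55, 8.43 and 8.46 in TRAF2LC hearts, 8.42, 8.72, 8.38 and 8.33 in IκBαΔN hearts, 8.02, 7.999, 8.21 and 8.02 in double transgenic hearts, and 8.66, 8.70, 8.61 and 8.72 in control hearts. All 4 double transgenic arrays lay below the other 12, an arrangement that 0.159% of all genes tested showed in this direction, and the TRAF2LC arrays also lay below the control arrays without overlap. The IκBαΔN arrays overlapped those of the controls through 1 array at 8.72. This was IκBαΔN array 2, which had the lowest mean signal of all arrays. The rest of the IκBαΔN arrays, at 8.33 to 8.42, lay below every control array.

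Hspa2 fell by 0.61 ± 0.10 in double transgenic against control hearts, to 0.655 of the control level (adjusted p = 0.00478), and by 0.43 ± 0.10 in double transgenic against TRAF2LC hearts (adjusted p = 0.0252). In double transgenic against IκBαΔN hearts the difference was -0.40 ± 0.10, which did not pass (adjusted p = 0.580, unadjusted p = 0.000983). Each single transgene gave a smaller difference from control that did not pass, -0.18 ± 0.10 for TRAF2LC (adjusted p = 0.572) and -0.21 ± 0.10 for IκBαΔN (adjusted p = 0.654). The interaction was -0.22 ± 0.14 (adjusted p = 0.870), so a departure from the sum of both single differences was not detected. A second Hspa2 probe, ILMN_3140383, was dim and detected on 14 arrays, and it showed a difference of -0.02 in double transgenic against control hearts (adjusted p = 0.989). The probes of this gene therefore disagree, and the decrease rests on the brighter one.

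Hspa1l is an HSP70 encoded beside the stress-inducible Hspa1a in the major histocompatibility region and is known for expression in testis. Its probe ILMN_2654682 read 6.52, 6.50, 6.65 and 7.18 in TRAF2LC hearts, 6.52, 6.95, 6.86 and 6.38 in IκBαΔN hearts, 7.46, 7.15, 7.01 and 7.29 in double transgenic hearts, and 6.51, 6.75, 6.27 and 6.03 in control hearts. All double transgenic arrays lay above all control and all IκBαΔN arrays, and 1 TRAF2LC array, at 7.18, reached into their range. It was TRAF2LC array 4, which had the most detected probes of all arrays. Hspa1l rose by 0.84 ± 0.18 in double transgenic against control hearts, a fold of 1.78 (adjusted p = 0.0416), a call that held in 14 of 29 alternatives. It was 0.51 ± 0.18 higher in double transgenic than in TRAF2LC hearts (adjusted p = 0.160) and 0.55 ± 0.18 higher than in IκBαΔN hearts (adjusted p = 0.850), and neither difference passed. The Hspa1l probe was dim, with deposited signals of 43.0 to 251. HSP70 genes are close in sequence, and where this probe lies relative to the transcripts of its neighbours was not known here. The Hspa1a probe was detected on 7 of 16 arrays and differed by -0.05 in double transgenic against control hearts (adjusted p = 0.988).

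Dnajc3, which encodes the endoplasmic reticulum co-chaperone and PERK inhibitor p58IPK, had the largest difference of any of the 49 genes and missed the threshold. It read 6.40, 7.48, 6.51 and 7.11 in TRAF2LC hearts, 7.67, 6.92, 6.55 and 6.52 in IκBαΔN hearts, 6.42, 6.35, 6.32 and 5.96 in double transgenic hearts, and 7.64, 7.48, 7.24 and 7.08 in control hearts. All double transgenic arrays lay below all control and all IκBαΔN arrays, and both single transgenic groups spread over most of the range between. The log2 difference was -1.10 ± 0.25 in double transgenic against control hearts (adjusted p = 0.0523, unadjusted p = 0.000482), -0.49 ± 0.25 in TRAF2LC against control hearts and -0.44 ± 0.25 in IκBαΔN against control hearts.

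**Figure D2:**
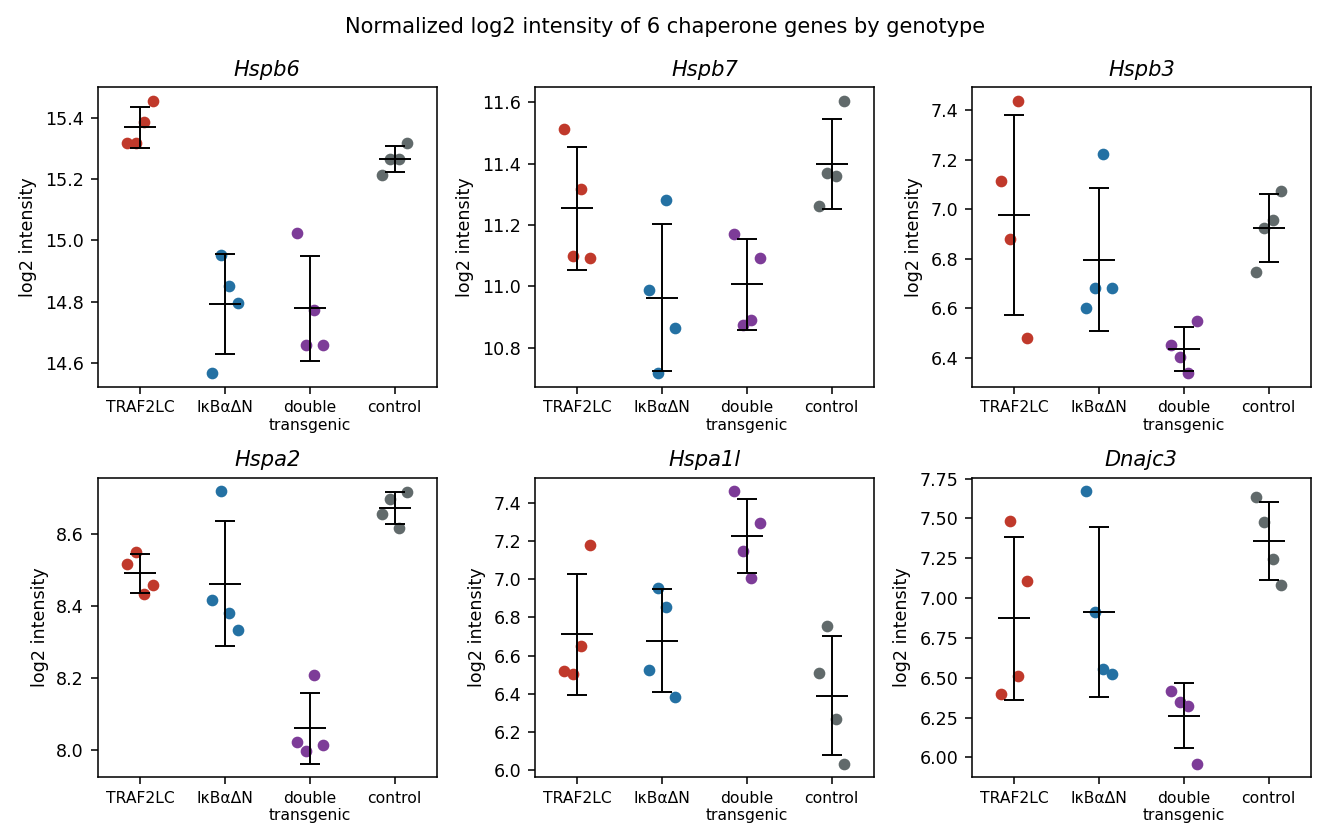
Points are the log2 intensities of single arrays for 6 chaperone genes, with the mean (bar) and SD (whiskers) of the 4 arrays of each genotype, on separate axes that do not start at 0. Hspb6 separates hearts with the IκBαΔN transgene from hearts without it, Hspa2 is lowest in double transgenic hearts, and Hspa1l is highest in them. Hspb7, Hspb3 and Dnajc3 did not pass a test.

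Among the small heat shock proteins, all 7 were detected on all 16 arrays. Between double transgenic and control hearts 5 of the 7 were lower and 2 higher, with a median difference of -0.23, against a median of -0.00 over all genes tested. The median difference from control was 0.04 in TRAF2LC and -0.01 in IκBαΔN hearts, where 4 genes and 3 genes were higher. Between double transgenic and IκBαΔN hearts it was -0.01, with 3 genes higher and 4 lower. Over single arrays the median of the 7 genes relative to their control means ran from -0.23 to -0.17 in double transgenic hearts, from -0.26 to 0.00 in IκBαΔN hearts, from -0.14 to 0.12 in TRAF2LC hearts and from -0.08 to 0.05 in control hearts. The double transgenic arrays thus lay below all control arrays, with 1 of the 7 genes called.

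Hspb7, a cardiac small heat shock protein of the sarcomere, read 11.51, 11.10, 11.32 and 11.09 in TRAF2LC hearts, 10.99, 10.72, 11.28 and 10.86 in IκBαΔN hearts, 11.17, 10.87, 10.89 and 11.09 in double transgenic hearts, and 11.26, 11.37, 11.36 and 11.61 in control hearts. The differences from control were -0.44 ± 0.14 in IκBαΔN hearts (adjusted p = 0.295) and -0.39 ± 0.14 in double transgenic hearts (adjusted p = 0.273), against -0.14 ± 0.14 in TRAF2LC hearts. As for Hspb6, the means were lowest in hearts carrying the IκBαΔN transgene, but the TRAF2LC arrays overlapped with them. The IκBαΔN array at 11.28 also lay above the control array at 11.26.

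Hspb3, a small heat shock protein of muscle, read 6.45, 6.40, 6.34 and 6.55 in double transgenic hearts, against 6.75, 6.93, 6.96 and 7.08 in control hearts. These groups did not overlap, and the difference of -0.49 ± 0.17 did not pass (adjusted p = 0.288). Hspb8, the partner of Bag3 in chaperone-assisted autophagy, read 11.65, 11.81, 11.80 and 11.92 in TRAF2LC hearts, against 11.37, 11.30, 11.58 and 11.60 in control hearts. The groups did not overlap here either, and the difference of 0.34 ± 0.13 did not pass (adjusted p = 0.358). Cryab, which encodes αB-crystallin, differed from control by -0.12 ± 0.18 in TRAF2LC hearts, -0.01 ± 0.18 in IκBαΔN hearts and -0.23 ± 0.18 in double transgenic hearts, none of which passed. The remaining members, Hspb1 and Hspb2, ranged over the 3 comparisons with control between -0.21 and 0.34.

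Of the 13 genes matched in the HSP70 and HSP110 group, 7 were tested and 6 were detected on no array. Besides Hspa2 and Hspa1l, the constitutive cytosolic chaperone Hspa8 differed from control by 0.22 ± 0.14 in TRAF2LC hearts, 0.02 ± 0.14 in IκBαΔN hearts and 0.02 ± 0.14 in double transgenic hearts. Its second probe gave -0.28 in double transgenic hearts (adjusted p = 0.649), with the opposite sign. Hspa9, the mitochondrial HSP70, differed from control by -0.00 in TRAF2LC, 0.01 in IκBαΔN and -0.05 in double transgenic hearts by its brighter probe, and its second probe differed by 0.17 in double transgenic hearts (adjusted p = 0.756). The median of the 7 genes was -0.00 in TRAF2LC, 0.01 in IκBαΔN and 0.02 in double transgenic hearts relative to control. The calls in this group thus went in both directions, and its median stayed near that of all genes.

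HSP90 was represented by 1 tested gene, Hsp90b1, the endoplasmic reticulum HSP90 known as GRP94. It differed from control by 0.20 ± 0.19 in TRAF2LC hearts, 0.06 ± 0.19 in IκBαΔN hearts and -0.01 ± 0.19 in double transgenic hearts. Cytosolic Hsp90aa1 had 2 probes, and neither was detected on any array, so no level can be given for it. Among the mitochondrial chaperonins, Hspd1 (HSP60) differed from control by -0.01 ± 0.17, -0.27 ± 0.17 and -0.07 ± 0.17 in TRAF2LC, IκBαΔN and double transgenic hearts, and its co-chaperonin Hspe1 by -0.03 ± 0.24, 0.12 ± 0.24 and -0.15 ± 0.24. A second Hspd1 probe gave 0.21, -0.05 and -0.01 in the same order, so the sign of the small difference in TRAF2LC hearts depends on the probe.

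The 27 tested DNAJ genes had median differences from control of -0.06 in TRAF2LC, -0.09 in IκBαΔN and -0.06 in double transgenic hearts, against medians between -0.01 and -0.00 over all genes. In IκBαΔN and in double transgenic hearts alike 18 of the 27 were lower and 9 higher than control, and 0 were called by limma in any of the 7 tests. Of the 27 genes, 20 were detected on all 16 arrays and 7 on fewer. Dnaja2, Dnajc17 and Dnajc18 were detected on no IκBαΔN array, and Dnajc5b on no double transgenic array. Their lower values in those hearts thus lie near background. Dnajb12, an endoplasmic reticulum membrane co-chaperone, read 7.88, 7.86, 7.72 and 7.99 in double transgenic hearts, against 7.48, 7.39, 7.58 and 7.70 in TRAF2LC hearts. Those groups did not overlap, and the difference of 0.33 ± 0.11 did not pass (adjusted p = 0.136). Dnajc15, a J-protein of the mitochondrial inner membrane, differed from control by -0.30 ± 0.12 in TRAF2LC hearts (adjusted p = 0.404), -0.35 ± 0.12 in IκBαΔN hearts (adjusted p = 0.400) and -0.20 ± 0.12 in double transgenic hearts (adjusted p = 0.624). Dnaja3, a mitochondrial J-protein, and Dnajc19, a J-protein of mitochondrial protein import, ranged between -0.28 and -0.03 over the same comparisons. Leaving aside Dnajc3, no DNAJ gene moved by more than 0.5 log2 units from control in any genotype.

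The 5 BAG genes had median differences of 0.09, 0.04 and 0.02 in TRAF2LC, IκBαΔN and double transgenic hearts. Bag3, the co-chaperone of HSP70 and small heat shock proteins in muscle, read 13.15, 13.04, 13.04 and 13.27 in double transgenic hearts, against 13.32, 13.27, 13.37 and 13.38 in IκBαΔN hearts. Those arrays touched without overlapping, and the difference of -0.21 ± 0.12 did not pass (adjusted p = 0.861). Bag4, an inhibitor of TNF receptor signalling also called SODD, was 0.34 ± 0.15 from control in TRAF2LC hearts (adjusted p = 0.427) without overlap of arrays. Bag6, of the pathway that inserts tail-anchored membrane proteins, was 0.45 ± 0.24 from control in double transgenic hearts, a value raised by 1 array at 9.91 beside 8.62 to 9.10 in the others. Bag1, a nucleotide exchange factor of HSP70, stayed within 0.04 of control.

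**Figure D3:**
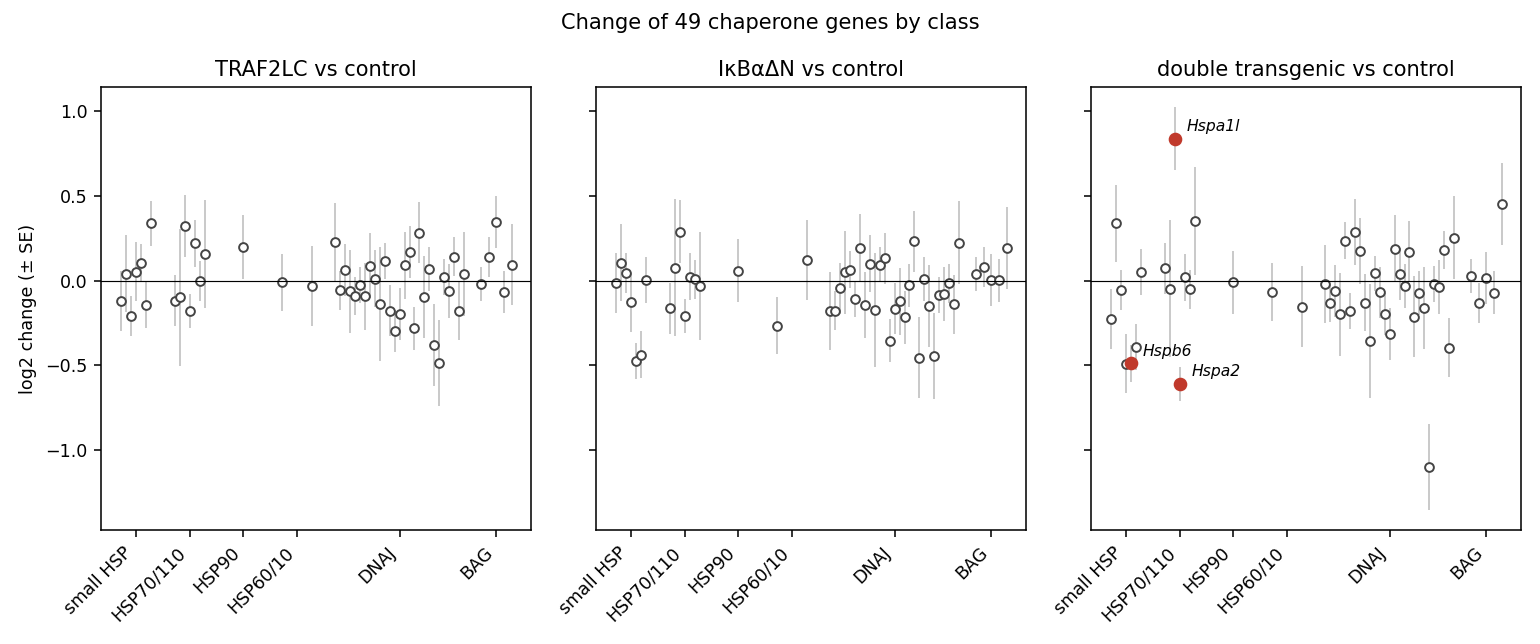
Each circle is 1 of the 49 genes, with its log2 difference from control and SE, for TRAF2LC, IκBαΔN and double transgenic hearts. Filled circles mark an adjusted p under 0.05. The called genes are in double transgenic hearts, Hspa1l at 0.84, Hspb6 at -0.49 and Hspa2 at -0.61, and the open circle at -1.10 is Dnajc3.

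Arrays were also compared for overlap. In double transgenic against control hearts 6 of 49 genes had all 4 arrays below all control arrays, against 4.16% of all genes, and these were Dnajc3, Dnajc5b, Hspa2, Hspb3, Hspb6 and Hspb7. Hspa1l was the 1 member entirely above control there, against 4.88% of all genes. Relative to IκBαΔN hearts, 4 of 49 lay entirely lower in double transgenic hearts, against 1.51% of all genes, namely Bag3, Dnajc3, Hspa2 and Hspb3, and Hspa1l lay entirely higher, against 1.43%. Relative to TRAF2LC hearts, Hspa2 and Hspb6 lay entirely lower, against 5% of all genes, and Dnajb12 entirely higher, against 5.84%. TRAF2LC arrays lay entirely above control for Bag4 and Hspb8, against 4% of all genes, and entirely below for Dnajc15 and Hspa2, against 3.45%. IκBαΔN arrays lay entirely below control for Dnajc15 and Hspb6, against 2.46% of all genes, and entirely above for 0 members, against 2.94%. In TRAF2LC and IκBαΔN hearts the members' shares were thus near those of all genes. Of the 6 genes entirely below control in double transgenic hearts, 3 belong to the 7 small heat shock proteins. Dnajc5b was detected on 5 of 16 arrays, none of them double transgenic, so its difference of -0.40 lies near background.

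Regulators and partners of these chaperones were read from lists of known genes, 2 of which also hold members already described. Among 5 tested heat shock factors and regulators limma called 0 in each of the 6 comparisons, and in double transgenic against control hearts Hsf4, a heat shock transcription factor of lens and other tissues, had the smallest p with 0.31 ± 0.21 (adjusted p = 0.648). The lists of the CCT chaperonin and prefoldin (8 tested), of endoplasmic reticulum folding and the unfolded protein response (16 tested) and of mitochondrial chaperones and proteases (12 tested) also had 0 calls in all 6 comparisons. Over these comparisons the share of all genes tested that was called ran from 0.0145% to 3.1%. The endoplasmic reticulum list includes the members Dnajb9, Dnajc3 and Hsp90b1, and the mitochondrial list Dnaja3, Hspa9, Hspd1 and Hspe1. The genes of smallest p of these 3 lists in double transgenic against control hearts were Cct6a at 0.23 ± 0.11 (adjusted p = 0.488), Dnajc3, given above, and Pam16 at -0.23 ± 0.15 (adjusted p = 0.650).

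Among 16 tested cofactors of HSP90 and HSP70, 1 was called, in double transgenic against TRAF2LC hearts, against 3.1% of all genes tested. The called gene was Fkbp4, which encodes the HSP90-binding immunophilin FKBP52. It read 11.77, 12.08, 12.12 and 11.76 in TRAF2LC hearts, 12.29, 12.56, 12.61 and 12.40 in IκBαΔN hearts, 12.56, 12.51, 12.51 and 12.68 in double transgenic hearts, and 11.99, 12.10, 12.08 and 12.27 in control hearts. All 8 arrays with the IκBαΔN transgene lay above all 8 without it, which 0.695% of all genes tested showed in this direction. Fkbp4 rose by 0.63 ± 0.12 in double transgenic against TRAF2LC hearts (adjusted p = 0.00427). Its difference from control was 0.45 ± 0.12 in double transgenic hearts (adjusted p = 0.0864) and 0.35 ± 0.12 in IκBαΔN hearts (adjusted p = 0.320), neither of which passed. Against control, 13 of the 16 cofactors were higher in double transgenic hearts and 3 lower, while 49.9% of all genes tested were higher. The median difference of the cofactors was 0.08, against -0.00 over all genes tested.

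The upstream sequences of the called HSP70 and small heat shock protein genes are shown because heat shock factor acts through repeats of the pentamer NGAAN and NF-κB through κB sites, and the genotypes bear on NF-κB. The windows are the 250 bases before each RefSeq start of Hspb6, Hspa2 and Hspa1l and of Hspa1a, the neighbour of Hspa1l, from RefSeq on build GRCm38.p6. They lie at chr7:30552290-30552539 and chr7:30553051-30553300 on the plus strand for the 2 starts of Hspb6, chr12:76404120-76404369 on the plus strand for Hspa2, chr17:34972157-34972406 on the minus strand for Hspa1a and chr17:34972453-34972702 on the plus strand for Hspa1l. Capitals mark GAANNTTC, the inward-facing pair of heat shock pentamers, which reads the same on both strands, and the κB consensus.
Hspb6, first start: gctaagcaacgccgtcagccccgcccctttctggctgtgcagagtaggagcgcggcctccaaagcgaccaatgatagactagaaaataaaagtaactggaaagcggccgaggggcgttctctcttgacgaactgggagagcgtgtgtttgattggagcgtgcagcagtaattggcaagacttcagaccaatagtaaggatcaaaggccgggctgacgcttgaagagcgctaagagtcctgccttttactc
Hspb6, second start: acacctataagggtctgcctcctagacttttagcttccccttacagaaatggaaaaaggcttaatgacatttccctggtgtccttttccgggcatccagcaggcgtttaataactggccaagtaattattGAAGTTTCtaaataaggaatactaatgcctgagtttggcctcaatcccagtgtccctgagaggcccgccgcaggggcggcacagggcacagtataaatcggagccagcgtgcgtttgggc
Hspa2: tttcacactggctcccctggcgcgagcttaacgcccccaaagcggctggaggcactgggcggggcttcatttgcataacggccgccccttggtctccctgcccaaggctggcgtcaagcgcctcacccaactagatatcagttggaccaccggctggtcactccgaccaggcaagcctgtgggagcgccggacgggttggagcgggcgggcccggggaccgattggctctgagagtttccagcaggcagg
Hspa1a: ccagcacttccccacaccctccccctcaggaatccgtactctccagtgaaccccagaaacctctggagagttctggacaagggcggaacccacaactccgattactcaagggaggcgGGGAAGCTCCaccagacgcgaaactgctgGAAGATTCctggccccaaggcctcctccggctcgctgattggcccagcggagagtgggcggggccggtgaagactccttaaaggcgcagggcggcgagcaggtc
Hspa1l: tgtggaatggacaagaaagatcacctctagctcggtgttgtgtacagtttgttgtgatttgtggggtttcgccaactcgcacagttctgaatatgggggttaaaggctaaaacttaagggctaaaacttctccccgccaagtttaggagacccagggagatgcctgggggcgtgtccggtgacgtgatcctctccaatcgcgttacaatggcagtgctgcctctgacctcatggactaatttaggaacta
GAANNTTC occurred 120 bases before the second Hspb6 start, where TATAAA stood 29 bases before it, and 104 bases before the Hspa1a start. A κB match stood 133 bases before the Hspa1a start. Neither motif was found, nor the other orientation TTCNNGAA, in the windows of Hspa2, Hspa1l or the first Hspb6 start. The windows of Hspa1l and Hspa1a face away from each other, with the starts 547 bases apart.

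Across the promoter table GAANNTTC was in 6.69% of 32851 windows and in 19.6% of the 51 windows of 38 tested members that the table holds. Either orientation, GAANNTTC or TTCNNGAA, was in 12.8% of all windows and in 27.5% of the members' windows. The κB consensus, searched on both strands, was in 7.25% of all windows and in 7.84% of the members' windows. Several members have overlapping windows from neighbouring starts, and Hspd1 and Hspe1 share one stretch, so the members' windows are not independent. These matches describe the letters of the windows.

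Other facts of the arrays stood beside these results as follows. The mean deposited signal per array was 129 to 375, and 7948 to 9397 probes were detected. TRAF2LC array 4 had the most detected probes and IκBαΔN array 2 the lowest mean signal, and without both arrays the double transgenic calls of Hspb6 (adjusted p = 0.0320), Hspa2 (0.00155) and Hspa1l (0.0143) against control held. The 10 tested cardiomyocyte markers had a median relative to control between -0.16 and 0.18 on every array. Among them Ryr2 was detected on 6 of 16 arrays. None of 8 T and B lymphocyte markers was tested. Of all genes tested, 47.5% were higher than control in TRAF2LC, 48.5% in IκBαΔN and 49.9% in double transgenic hearts. Of 7 tested macrophage markers all were higher in TRAF2LC than in control hearts, with 1 called, against 1.12% of all genes. The median of these markers per array was 0.12 to 0.996 in TRAF2LC, -0.05 to 0.38 in IκBαΔN, -0.06 to 0.11 in double transgenic and -0.13 to 0.13 in control hearts. Smooth muscle markers had a median difference from control of -0.21 in TRAF2LC, 0.04 in IκBαΔN and 0.19 in double transgenic hearts. Of the 7 tested, 2 were higher and 5 lower than control in TRAF2LC hearts. In IκBαΔN and in double transgenic hearts alike 4 were higher and 3 lower. Acta2, the only smooth muscle marker called against control, differed by 0.04 in TRAF2LC (adjusted p = 0.977), 0.66 in IκBαΔN (adjusted p = 0.193) and 1.01 in double transgenic hearts (adjusted p = 0.0129). Of 9 tested atrial markers 7 were lower than in control in TRAF2LC, 8 in IκBαΔN and 7 in double transgenic hearts. Among these Myl1 differed by 0.14 in TRAF2LC (adjusted p = 0.840), -1.58 in IκBαΔN (adjusted p = 4.3e-05) and -1.33 in double transgenic hearts (adjusted p = 0.000257), so that, like Hspb6, it was lower in hearts with the IκBαΔN transgene. The part of these markers in the differences of Hspb6, Hspa2 and Hspa1l was not tested. The Traf2 probe differed by 0.26 ± 0.14 in TRAF2LC hearts and by -0.15 ± 0.14 in double transgenic hearts against control (adjusted p = 0.558 and 0.774), and the Nfkbia probe by 0.05 ± 0.13 in IκBαΔN and 0.00 ± 0.13 in double transgenic hearts (adjusted p = 0.969 and 0.996). Whether these probes lie in the transgenes is not given, so they do not check the labels.

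The calls differed in how they held under other processing, as the plot of adjusted p-values shows. Hspb6 in double transgenic against TRAF2LC hearts passed in 28 of 29 alternatives, Hspa2 against control in 28 and Hspa2 against TRAF2LC in 22. None of these alternatives changed the probe, and the decrease of Hspa2 rests on its brighter probe. The 3 results near the threshold were less steady: Hspb6 against control passed in 13 of 29, Hspa1l in 14, and Dnajc3, which did not pass, did so in 10. Median scaling in place of quantile normalization ended all 5 calls, while their log2 differences kept their sign. Under it the median difference of all genes from control was 0.13 in TRAF2LC, -0.23 in IκBαΔN and 0.11 in double transgenic hearts, against -0.01, -0.01 and -0.00 after quantile normalization. Hspb6 in IκBαΔN against control hearts passed in 6 of 29 alternatives.

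The sample descriptions carry a number ending in P whose meaning is not given and which falls into 3 runs. Double transgenic hearts were in the runs 535 to 538 (1 heart) and 663 to 675 (3 hearts), each with 1 control. Within them Hspb6 differed from control by -0.29 and -0.57, Hspa2 by -0.69 and -0.54, Hspa1l by 1.42 and 0.88, and Dnajc3 by -0.67 and -1.03. For IκBαΔN hearts Hspb6 differed from control by -0.42 in the run 535 to 538 and by -0.56 in the run 617 to 624. Each of these differences kept the direction it had over all arrays. The IκBαΔN difference of Hspa1l from control, 0.29 over all arrays, did not, with 0.87 in the run 535 to 538 and -0.18 in the run 617 to 624.

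**Figure D4:**
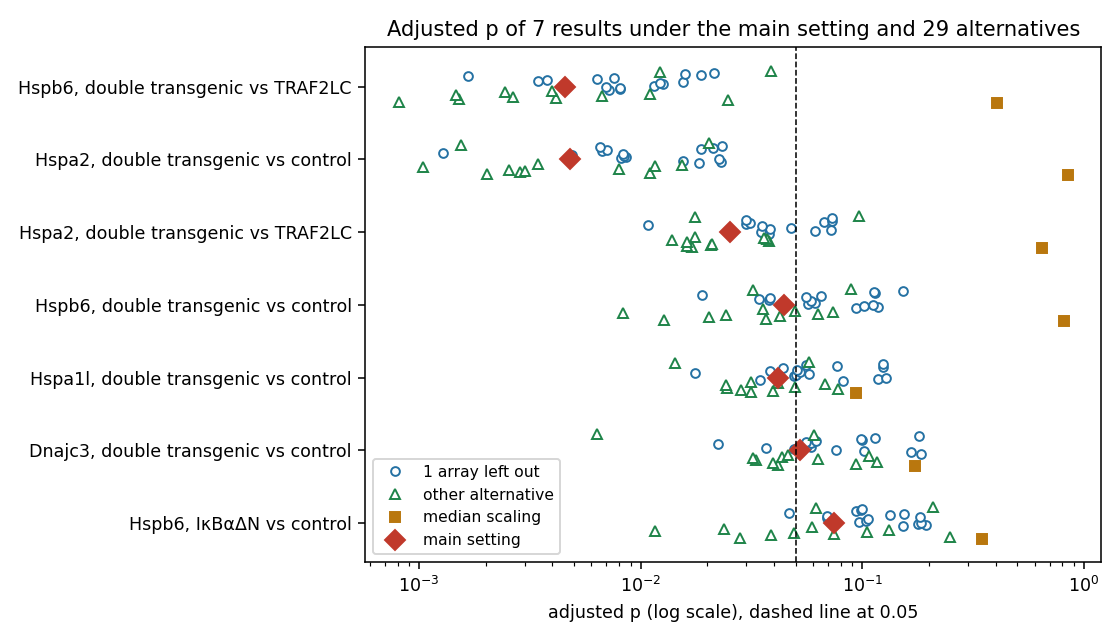
Adjusted p-values, on a log scale, of 7 results under the main setting (diamonds), with 1 array left out (circles), under median scaling (squares) and under the other alternatives (triangles). The dashed line is 0.05. For Hspb6 against TRAF2LC and Hspa2 against control all symbols but the squares lie left of the line, and the lower results fall on both sides of it.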

How the data were processed

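Total RNA from 16 hearts was biotin-labelled and run on single-colour Illumina arrays for mouse, as the labels describe. The deposited table holds 1 signal intensity and 1 detection p-value, the authors' own, for each of 25697 probes and each array, and 14378 probes lie below 0 on at least 1 array. The deposited matrix of processed values holds these intensities after the authors scaled each array to a mean of 276. BeadStudio and GenomeStudio are the tools given in the submitters' processing notes. The number of arrays limits the precision.

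Intensities were corrected with limma's nec, from the detection p-values and with an offset of 16, quantile normalized and log2-transformed (limma 3.58.1, R 4.3.3). A probe was kept when its detection p was under 0.01 on 4 or more arrays, which left 9449 probes of 6902 genes. Members had 55 of these, and 6 member genes had more than 1. One fit of 4 genotype means, with 12 residual and 4.64 prior degrees of freedom, gave an F test and 6 log2 differences, each adjusted by Benjamini-Hochberg over all probes, with a threshold of 0.05. The fit was tested on simulated data. Alternatives changed background correction, normalization, offset, filters, probe choice, array weights, blocks and single arrays. Probe choice was not among the 29 alternatives counted for single genes. Leaving out TRAF2LC array 4 and IκBαΔN array 2 together was chosen after seeing the data.

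The members and the gene lists were chosen with earlier results of these data known. Named with values were Hspb6, Hspa2, every member called, and in each class the 3 genes with the smallest F-test p and the 3 brightest. From each other list the called genes were named, or else the gene of smallest p. Other genes named in the text, such as those without overlap and the marker Acta2, were chosen after their values were seen. Symbols came from the platform probe table, and all 70 member symbols matched RefSeq by gene number, with 0 changed. Upstream sequences came from RefSeq tables of GRCm38.p6, while the build of the array design was not known.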

Additional observations from a re-analysis of the deposited data

Results flagged for a closer look

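In 6 of 84 groups of 4 arrays examined for the named genes, 1 array stood apart from the other 3 by more than Dixon's limit, which chance alone gives in about 5% of groups. Among them, 3 concerned IκBαΔN array 3, where Hspa8 read 13.27 beside 12.79 to 12.86 in the other IκBαΔN arrays, Hspb3 read 7.22 beside 6.60 to 6.68, and Hspd1 read 7.97 beside 8.49 to 8.55. In double transgenic array 1 Hspb8 read 11.95 beside 11.29 to 11.40 in the other double transgenic arrays. Hspa2 in double transgenic array 3 read 8.21 beside 7.999 to 8.02, which is still below every array of the other genotypes. In control array 1 Cryab read 11.58 beside 11.67 to 11.69 in the other controls.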

How the results depend on the processing

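No chaperone result reversed its direction while called. Median scaling lowered the chaperone calls to 1 in the F test, 0 in double transgenic against control hearts and 0 in double transgenic against TRAF2LC hearts, with adjusted p-values of 0.815 for Hspb6, 0.845 for Hspa2 and 0.0942 for Hspa1l against control, and of 0.407 for Hspb6 and 0.647 for Hspa2 against TRAF2LC; the cause was not tested. In IκBαΔN against control hearts, 1 gene, Hspb6, was called without background correction (adjusted p = 0.0281), with an offset of 50 (0.0387), with detection on all 16 arrays (0.0491), with array weights (0.0116) and with a block of P number runs (0.0237). With only the 2 genotypes compared, 1 gene was called in double transgenic against TRAF2LC hearts, and the adjusted p of Hspa2 was 0.0968; against control that setting ended the calls of Hspb6 (0.0892) and Hspa1l (0.0575) and called Dnajc3 (0.00637). Hspb6 against control was also lost at a detection p under 0.05 (0.0629), and Hspa1l with no filter (0.0776). Leaving out single arrays gave 2 to 3 calls in the F test, 0 to 1 in IκBαΔN against control hearts, 1 to 3 in double transgenic against control hearts and 1 to 3 in double transgenic against TRAF2LC hearts. Hspb6 against control lost its call without any 1 of the 4 control arrays (0.0942 to 0.117), without double transgenic array 2, 3 or 4 (0.113 to 0.154), without TRAF2LC array 1, 2 or 3, and without IκBαΔN array 3 or 4. Hspa1l lost it without control array 1, 3 or 4 (0.0817 to 0.128), without any 1 double transgenic array (0.0560 to 0.124), without TRAF2LC array 2 or 3, and without IκBαΔN array 1 or 3. Hspa2 against TRAF2LC lost it without TRAF2LC array 1 or 2 and without double transgenic array 1, 2 or 4 (0.0610 to 0.0733). With the replicate number as a block, 2 genes were called in double transgenic against control hearts, and Hspb6 (0.0736) and Hspa1l (0.0680) were not among them while Dnajc3 (0.0436) was; 2 were called against TRAF2LC hearts. Deviations from the genotype means correlated between same-numbered arrays with a median of 0.25 over 24 pairs, of which 16 were over 0.1, and with a median of -0.12 over 72 pairs of other numbers, of which 25 were over 0.1. The same-numbered arrays thus correlated more, but the lowest of their pairs was at -0.29 and the labels give no shared litter, batch or day, so the numbers were not taken to pair the samples. Across single-gene results 3518 stayed as they were, 55 moved, 20 gained and 40 lost a call, and 0 reversed. Dim probes near background, such as those of Dnajc5b and of the stress-inducible Hspa1a, limit what can be seen for these members.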
